A study of Mus musculus with 4 samples.

Results

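Actin filaments in a neutrophil are held together, and held to the membrane, by a small set of linker proteins, and 9 of their genes are described here: Flna, Actn1, Actn4, Tln1, Tln2, Vcl, Lcp1, Pls3 and Pxn. They are defined by gene symbol, and all 9 were found among the 23284 genes of the authors' deposited gene table. RNA had been sequenced from neutrophils of 2 Srf KO samples and 2 WT samples, 4 in all. Both genotypes were sorted from mouse bone marrow in the same way, as cells high for Gr1, the 7/4 antigen and side scatter, a profile of mature neutrophils. The protein made from Srf is the transcription factor SRF (serum response factor), and the title of the series names neutrophil migration in inflammation as its subject. The Srf allele, the means of its deletion, the strain, sex and age of the mice and whether each sample came from its own animal are not given in the sources used here. The authors' deposited tables hold 1 pooled value per genotype in FPKM (fragments per kilobase of transcript scaled to library size), so the sequencing depth is unknown and no spread between samples can be shown. Folds are on the log2 scale with Srf KO over WT, and a negative one means lower in Srf KO. The ± beside a fold is a standard error obtained by dividing that fold by the authors' statistic, and a gene is called where the authors' adjusted p is at most 0.05.

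A crawling neutrophil couples its actin network to integrins in the plasma membrane. Talin binds the integrin tail and switches the integrin to its high-affinity state, vinculin strengthens the talin link to actin, and paxillin is a scaffold at the same site. Alpha-actinins and plastins bundle filaments side by side, and filamins join crossing filaments into a network and also bind integrin tails. Several genes of this machinery, vinculin and alpha-actinin among them, are known SRF targets in other cell types, and SRF reaches its targets through a DNA element called the CArG box, a run of A and T bases between CC and GG.

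Promoter sequence was taken from RefSeq (GRCm38.p6) as windows of 300 bases, 250 before and 50 after the annotated start, and 7 of the 9 linker genes had a window. An exact CArG box, searched on both strands of a motif that is its own reverse complement, stood in 1 of those 7 genes, Vcl, the vinculin gene. Of all 32851 windows in the table, 1.63% held an exact box, and 21.1% held a box with at most 1 mismatch. These shares are per window and the linker count is per gene. Lcp1 had 2 windows and Pls3 had 3, so the measures are not quite alike. The bases before the start are printed for 3 genes, in the direction of transcription, to show the exact match, a near match and a gene with neither. Capitals mark the box in Vcl (chr14:20929148-20929397, plus strand), which begins 227 bases before the start, and the box with 1 mismatch in Flna (chrX:74246535-74246784, minus strand), which begins 44 bases before it. The Actn1 stretch (chr12:80260364-80260613, minus strand) has no capitals because no such match was found.
Vcl: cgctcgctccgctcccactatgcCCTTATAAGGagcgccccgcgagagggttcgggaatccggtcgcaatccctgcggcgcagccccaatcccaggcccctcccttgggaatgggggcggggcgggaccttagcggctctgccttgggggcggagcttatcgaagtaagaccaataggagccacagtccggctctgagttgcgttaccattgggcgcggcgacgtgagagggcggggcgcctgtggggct
Flna: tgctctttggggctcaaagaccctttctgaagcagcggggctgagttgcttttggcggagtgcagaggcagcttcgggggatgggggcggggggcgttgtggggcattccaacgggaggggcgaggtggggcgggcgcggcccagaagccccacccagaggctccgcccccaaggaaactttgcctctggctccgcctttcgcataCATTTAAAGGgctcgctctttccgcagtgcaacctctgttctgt
Actn1: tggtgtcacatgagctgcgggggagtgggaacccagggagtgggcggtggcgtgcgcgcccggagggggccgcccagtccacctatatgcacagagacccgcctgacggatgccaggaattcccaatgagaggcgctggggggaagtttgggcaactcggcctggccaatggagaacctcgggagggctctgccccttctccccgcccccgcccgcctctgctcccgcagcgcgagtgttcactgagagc
The windows of Actn4, Tln1 and Lcp1 likewise held no box with at most 1 mismatch, and 1 of the 3 Pls3 windows held a box with 1 mismatch, TCTAAATAGG. For comparison, the window of Srf itself held 2 exact boxes, CCATATAAGG and CCATAAAAGG, and that of Actg1, a cytoplasmic actin gene, held CCATATATGG. A match is a string of letters in a window and not a measured binding site. These windows leave out introns and distant elements.

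The labels could be checked on Srf, which stood at 0.439 FPKM in Srf KO neutrophils, against 13.7 FPKM in WT neutrophils in the authors' deposited table (log2 fold -4.97 ± 0.27). Of the 9 linker genes, 8 were tested by the authors, 7 were called lower in Srf KO, 0 were called higher, and Pls3 was tested without a call. Over all genes, 17.8% of the 12634 tested genes were called lower and 17.7% were called higher. The median log2 fold of the 8 tested linker genes was -0.93, beside 0.08 for all 12552 tested genes with a fold. The 7 tested neutrophil markers described further below had a median of -0.94, so a fall of this size was not particular to the linkers. Flna, Actn1, Tln1 and Lcp1 were each called at least 2-fold lower, a class that held 6.45% of the tested genes. Actn4, Pxn and Vcl were called with smaller folds. These are bulk RNA values, in which fewer cells of a type and less RNA per cell cannot be told apart.

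**Figure D1:**
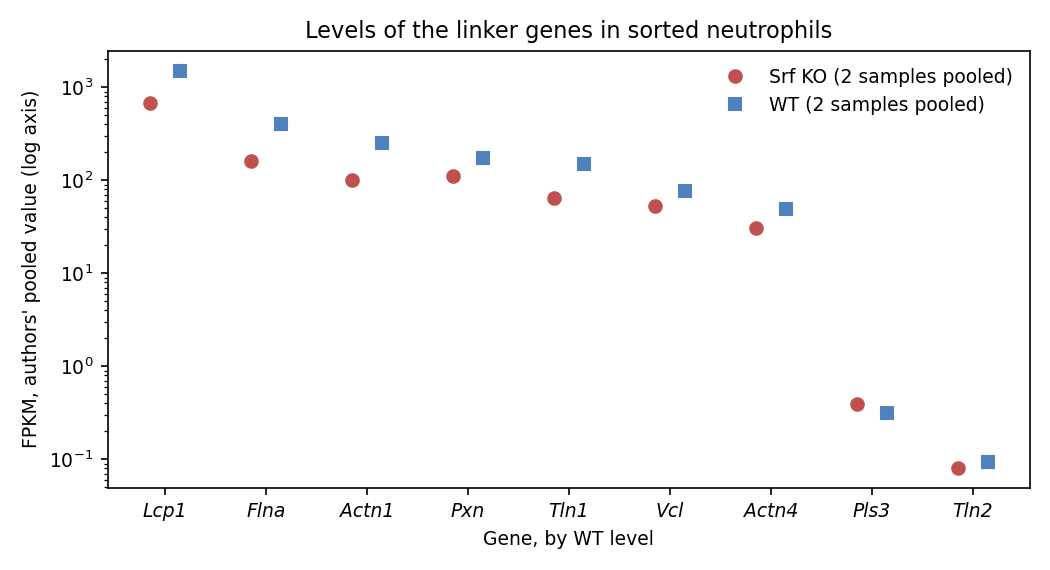
Pooled FPKM of the 9 linker genes (log vertical axis) in Srf KO neutrophils (circles) and WT neutrophils (squares), 1 value per genotype from the authors' deposited table, ordered by WT level. Lcp1 is highest in both genotypes, at 681 FPKM in Srf KO and 1512 FPKM in WT, and Tln2 and Pls3 lie below 1 FPKM in both.

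Among the crosslinkers, Flna (filamin A; X:74223461-74246534, minus strand, 46 exons, ENSMUSG00000031328.15) had 161 FPKM in Srf KO neutrophils and 403 FPKM in WT neutrophils in the authors' deposited table. Its log2 fold was -1.32 ± 0.21 with an authors' adjusted p of 8.87e-09, which is 2.50-fold lower in Srf KO, and 3.70% of the tested genes had a lower fold. This was the lowest fold among the linker genes, but it differed from those of Actn1, Tln1 and Lcp1 by less than its own standard error. Flna lies on the X chromosome, where the 397 tested genes with a fold had a median log2 fold of 0.19. The pooled samples differed in sex-linked transcripts: Xist, made from the inactive X of female cells, stood at 4.92 FPKM in Srf KO and 0.0154 FPKM in WT, and the Y-linked Ddx3y at 4.23 FPKM in Srf KO and 13.5 FPKM in WT. All 4 listed Y-linked genes, Ddx3y, Eif2s3y, Kdm5d and Uty, were called lower in Srf KO. So were the X-linked Kdm5c and Ddx3x, with log2 folds of -0.73 and -0.62, which are named because of these values. Of the 9 listed sex-linked genes 6 were called lower, 2 were called higher, Xist among them, and 1 was not called. The part of the difference in sex-linked transcripts in the values of the linker genes, X-linked or not, was not tested. It goes with genotype in these pooled values, so it cannot be told apart from genotype for any of them.

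The alpha-actinins were both lower in Srf KO, by unequal amounts. Actn1 (12:80167542-80260371, minus strand, 21 exons, ENSMUSG00000015143.15) had 101 FPKM in Srf KO and 249 FPKM in WT, with a log2 fold of -1.30 ± 0.19 and an adjusted p of 1.86e-10 in the authors' deposited table. Actn4 (7:28881656-28962280, minus strand, 21 exons, ENSMUSG00000054808.15) had 30.6 FPKM in Srf KO and 49.6 FPKM in WT, with a log2 fold of -0.70 ± 0.19 and an adjusted p of 0.00129 in the same authors' table. Actn1 thus stood at 40.6% of its WT level and Actn4 at 61.5%. The fold of Actn1 minus that of Actn4 was -0.60 ± 0.27 on the log2 scale, with a 95% interval of -1.12 to -0.08 when the standard errors are taken as independent. Actn1 exceeded Actn4 by a ratio of 3.31 in Srf KO and 5.02 in WT. The Actn4 locus in the authors' table also holds Capn12, and the library kit does not keep strand, so reads in any overlap of these genes could not be assigned by strand.

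Of the 3 pairs of related genes compared, the plastins lay furthest apart in level. Lcp1, the L-plastin of blood cells, was the most abundant linker transcript, with 681 FPKM in Srf KO and 1512 FPKM in WT in the authors' deposited table. Its log2 fold was -1.15 ± 0.23 with an authors' adjusted p of 5.72e-06, so that Srf KO neutrophils had 45.1% of the WT level. Its locus in the authors' table (14:75004110-75388146, plus strand, ENSMUSG00000021998.16) is wider than the gene and also holds Zc3h13, Cpb2, Lrrc63, 5031414D18Rik and Mir466f-3. Pls3, the T-plastin of most other tissues (X:75785654-75875170, minus strand, 16 exons, ENSMUSG00000016382.15), had 0.393 FPKM in Srf KO and 0.316 FPKM in WT. Its log2 fold of 0.32 ± 0.48 had an authors' adjusted p of 0.639 and a 95% interval of -0.62 to 1.25, which is wide enough to hold a 2-fold rise. The fold of Lcp1 minus that of Pls3 was -1.47 ± 0.53, with a 95% interval of -2.50 to -0.43.

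Tln1, whose protein talin 1 is the main talin of blood cells, is on chromosome 4 (4:43531513-43562583, minus strand, 57 exons, ENSMUSG00000028465.16). It had 64.3 FPKM in Srf KO and 150 FPKM in WT, a log2 fold of -1.22 ± 0.19 with an adjusted p of 6.3e-09 in the authors' deposited table. Srf KO neutrophils therefore had 42.9% of the WT level of the transcript for the integrin-activating linker. Tln2, known from muscle and brain (9:67217085-67559703, minus strand, 58 exons, ENSMUSG00000052698.15), was not tested by the authors because too few reads fell on it. It was listed at 0.0810 FPKM in Srf KO and 0.0929 FPKM in WT, and the interval on its log2 fold of -0.20 ran from -0.87 to 0.48. The ratio of Tln1 to Tln2 was 793 in Srf KO and 1611 in WT. The fold of Tln1 minus that of Tln2 was -1.02 ± 0.39, with a 95% interval of -1.80 to -0.25.

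Vinculin and paxillin act on the cytoplasmic side of the talin link, and both of their genes were called lower with folds under 2. Pxn (5:115506702-115555986, plus strand, ENSMUSG00000029528.18) had 111 FPKM in Srf KO and 175 FPKM in WT, with a log2 fold of -0.65 ± 0.19 and an adjusted p of 0.00247 in the authors' deposited table. Vcl (14:20929433-21033673, plus strand, 21 exons, ENSMUSG00000021823.10) had 53.4 FPKM in Srf KO and 77.4 FPKM in WT, with a log2 fold of -0.54 ± 0.18 and an adjusted p of 0.0141 in the authors' table. Vcl, the gene with the exact CArG box printed above, thus had the smallest fold of the 7 called genes, at 68.9% of its WT level, and 19.5% of the tested genes had a lower fold. Its call was lost when the folds were adjusted for transcript length, where its log2 fold was -0.39 with an adjusted p of 0.0931, and it would not pass an adjusted p of 0.01. The near match in Flna and the absence of a match in Actn1 stood beside folds of -1.32 and -1.30.

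**Figure D2:**
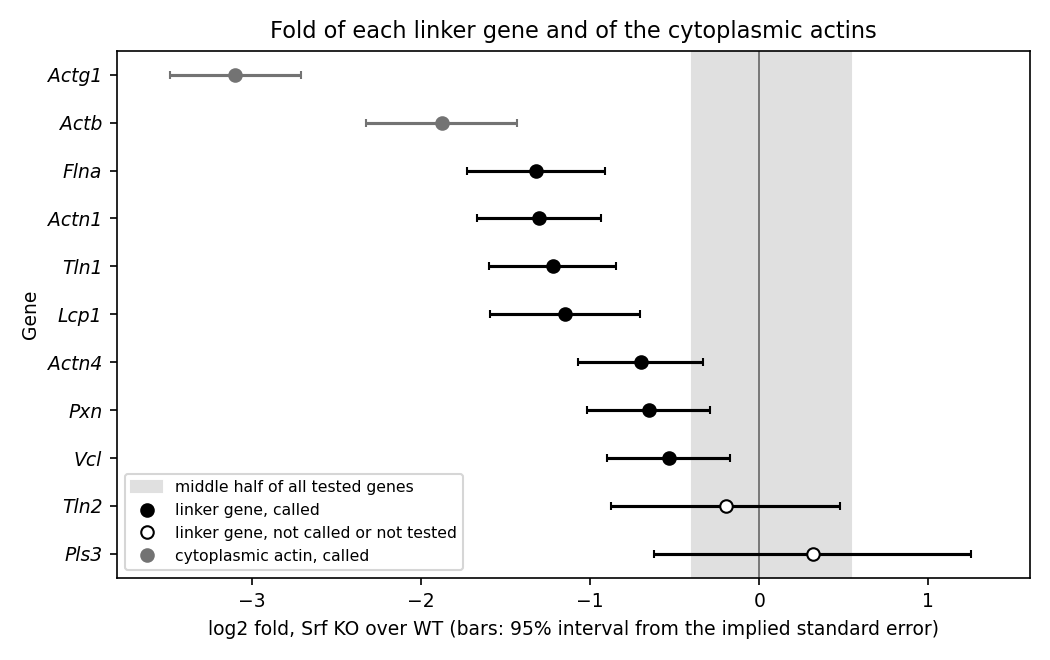
Log2 fold (Srf KO over WT, horizontal axis) of the 9 linker genes and, in grey, of the cytoplasmic actins Actb and Actg1, from the authors' deposited table, with bars for the 95% interval from the implied standard error. Filled circles were called by the authors, open circles were not called or not tested, and the shaded band spans the lower to the upper quartile of all tested genes, from -0.40 to 0.54. The 7 called linker genes lie between -1.32 and -0.54, all left of the band, and the actins lie further left, at -1.88 and -3.10.

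The transcripts of the cytoplasmic actins were lower by more than those of the linkers. Actb had 1268 FPKM in Srf KO and 4667 FPKM in WT, and Actg1 had 262 FPKM in Srf KO and 2246 FPKM in WT, in the authors' deposited table. Their log2 folds were -1.88 ± 0.23, with an authors' adjusted p of 2.05e-14, and -3.10 ± 0.20, with an authors' adjusted p listed as 0. Summed over both actins, the level was 1530 FPKM in Srf KO and 6913 FPKM in WT, 4.52-fold lower in Srf KO. The 9 linker genes together summed to 1203 FPKM in Srf KO and 2616 FPKM in WT, 2.17-fold lower in Srf KO. Linker transcript per unit of actin transcript was therefore higher in Srf KO, at 0.786 FPKM per actin FPKM, against 0.378 in WT. Only 1.34% of the tested genes had a lower fold than Actb, the actin gene with the smaller fall. Such a ratio would thus be higher in Srf KO for nearly all tested genes and is not particular to the linkers.

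The ratio to actin was likewise higher in Srf KO for each called linker gene. Per 100 FPKM of actin, Lcp1 stood at 44.5 FPKM in Srf KO and 21.9 FPKM in WT, and Flna at 10.5 FPKM in Srf KO and 5.83 FPKM in WT. Vcl stood at 3.49 FPKM in Srf KO and 1.12 FPKM in WT by that measure, and Pxn at 7.26 FPKM in Srf KO and 2.53 FPKM in WT. Tln1 stood at 4.20 FPKM in Srf KO and 2.17 FPKM in WT. These ratios of pooled values carry no replicate error and compare transcript and not protein. Within the linker genes, Lcp1 held 56.6% of the summed FPKM in Srf KO and 57.8% in WT. The order of levels was Lcp1, Flna, Pxn, Actn1, Tln1, Vcl, Actn4, Pls3 and Tln2 in Srf KO, and in WT Actn1 and Pxn changed places. With 1 value per genotype it cannot be said which neighbours in that order differ beyond the spread between samples.

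The authors' isoform, transcription start site (TSS) and coding sequence rows split only Lcp1, Pls3 and Pxn further. Of 13 isoform rows 9 were tested and 6 were called lower, where 14% of all tested isoform rows were. Of 12 TSS rows 8 were tested and 7 were called lower, beside 16.1% of all tested TSS rows, and of 10 coding sequence rows 9 were tested and 6 were called lower, beside 15.8%. No row of a linker gene was called higher in any of the 3 tables. For the members with a single transcript (Flna, Actn1, Actn4, Tln1, Tln2 and Vcl) these rows repeat the values of the gene row and add nothing to it.

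Lcp1 was carried almost wholly by 1 transcript of 17 exons, which had 671 FPKM in Srf KO and 1501 FPKM in WT, a log2 fold of -1.16 ± 0.23 with an adjusted p of 6.75e-06 in the authors' deposited isoform table. The other transcript, of 16 exons and with its own start, had 9.51 FPKM in Srf KO and 10.2 FPKM in WT. Its standard error of 2.83 on the log2 scale was too wide to place its fold of -0.10. Pls3 had 3 transcripts that the authors did not test. One of them held nearly all of its signal in Srf KO, at 0.393 FPKM against 0.184 FPKM in WT, and another was at 4.62e-05 FPKM in Srf KO and 0.132 FPKM in WT. All of these Pls3 values lie below 1 FPKM.

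Paxillin was called in the gene row and in its single TSS row (adjusted p 0.00287 in the authors' deposited TSS table), but in neither of its isoform rows nor its coding sequence rows. Its transcript of 11 exons had 109 FPKM in Srf KO and 165 FPKM in WT, with a log2 fold of -0.59 ± 0.35 and an adjusted p of 0.212 in the authors' deposited isoform table. Its transcript of 12 exons was listed at 2.07 FPKM in Srf KO and 10.3 FPKM in WT, but with a standard error of 13.9 on its log2 fold of -2.31 and an authors' adjusted p of 0.951. The standard error of the major transcript was wider than that of the whole gene, 0.35 beside 0.19. The transcripts differ in an exon of 102 bases, the seventh of 12, at chr5:115551488-115551589 (plus strand, GRCm38), whose length is a multiple of 3. That exon is printed in capitals because it is the internal exon by which the transcripts differ, with 30 bases of the neighbouring exons on either side as they are joined in the transcript.
Pxn exon: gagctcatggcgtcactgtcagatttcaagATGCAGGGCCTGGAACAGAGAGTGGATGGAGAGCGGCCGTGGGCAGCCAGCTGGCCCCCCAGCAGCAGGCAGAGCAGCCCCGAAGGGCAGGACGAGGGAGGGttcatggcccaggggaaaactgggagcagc
The transcripts also differ in their last exon, of 1110 bases in the transcript with 12 exons and 2119 bases in the transcript with 11. The share of Pxn carried by the 12-exon transcript was 1.87% in Srf KO and 5.86% in WT, and with that standard error no difference in share can be read from it.

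Folds in the whole gene table were lower for longer transcripts, and several linker transcripts are long. Over 12445 tested genes with a known length, the median log2 fold was 0.33 in the quartile with the shortest transcripts and -0.18 in the quartile with the longest, those of 4145 bases or more. In the longest quartile 29.95% of the genes were called lower. Flna (8345 bases), Tln1 (8393 bases) and Vcl (5267 bases) belong to it. When the running median over length was subtracted, the log2 fold of Flna was -1.02 and that of Tln1 was -0.92. Their adjusted p were 1.51e-05 and 2.15e-05, by the normal test on the implied standard errors with Benjamini-Hochberg adjustment over these 12445 genes. Actn1, Actn4, Lcp1 and Pxn, with transcripts of 3706 to 3877 bases, moved by less than 0.03. After this adjustment 6 of the 8 tested linker genes were called lower, Vcl being the one lost, beside 18.4% of the 12445 genes. The cause of the trend with length was not tested.

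**Figure D3:**
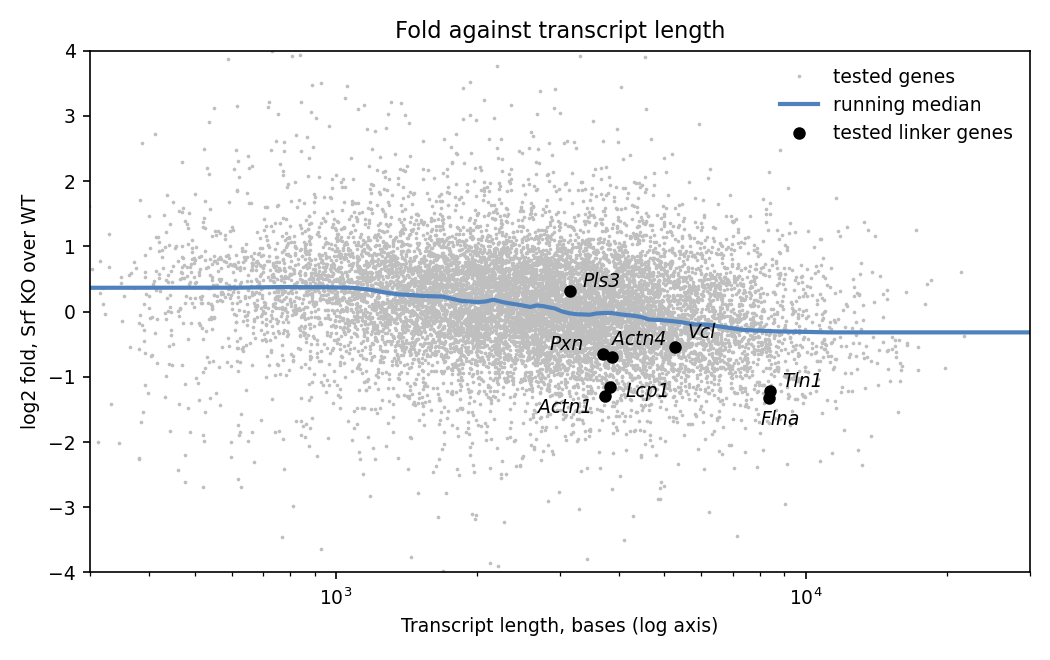
Log2 fold (Srf KO over WT, vertical axis) of each tested gene against the length of its transcript in bases (log horizontal axis), with the 8 tested linker genes as black circles and the running median as a line. The axes leave out 107 of 12445 genes, none of them a linker gene. Flna and Tln1 stand at -1.32 and -1.22 where the running median is -0.30, and Vcl at -0.54 where it is -0.15.

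Most close relatives of the linker genes named here lay below 1 FPKM in both genotypes. Flnc, the muscle filamin, was listed at 0 in both genotypes, and the muscle actinins Actn2 and Actn3 were below 0.1 FPKM in both and not tested. Pls1, the intestinal plastin, was called higher with 0.219 FPKM in Srf KO and 0.0356 FPKM in WT (log2 fold 2.62 ± 0.72, adjusted p 0.00180 in the authors' table). The paxillin relative Lpxn, leupaxin of blood cells, had 5.24 FPKM in Srf KO and 3.61 FPKM in WT, a log2 fold of 0.54 ± 0.26 without a call (authors' adjusted p 0.0917). Tgfb1i1, another paxillin relative, was listed at 0.159 FPKM in Srf KO and 0.219 FPKM in WT and was not tested.

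Other crosslinkers and membrane linkers moved in both directions. Of 25 listed genes 17 were tested, 6 were called lower, 4 were called higher and 7 were not called, with a median log2 fold of -0.15. The shares over all tested genes were 17.8% lower and 17.7% higher. Svil, which encodes supervillin, a membrane protein that binds actin and myosin, had 27.8 FPKM in Srf KO and 76.2 FPKM in WT (log2 fold -1.45 ± 0.18, adjusted p 1.58e-13 in the authors' deposited table). The adducin gene Add1, whose product caps filaments and joins them to spectrin, had 55.1 FPKM in Srf KO and 98.5 FPKM in WT, a log2 fold of -0.84 ± 0.19. Sptan1, the alpha spectrin of non-erythroid cells, fell by 0.80 ± 0.20 on the log2 scale, and Add3 fell by 0.57 ± 0.20. Ablim1, an actin-binding LIM protein gene, was called higher, with 6.07 FPKM in Srf KO and 2.91 FPKM in WT. The other genes called higher, Pls1, Dst and Sptb, were all below 1 FPKM in both genotypes. Dst and Sptb are named because of these values.

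The adhesion plaque is where talin and its partners meet the integrin. Of 30 listed plaque genes 25 were tested, 10 were called lower, 2 were called higher and 13 were not called, with a median log2 fold of -0.28. Among all tested genes 17.8% were called lower and 17.7% higher. Zyx, whose product zyxin recruits actin regulators to plaques, had 86.0 FPKM in Srf KO and 354 FPKM in WT (log2 fold -2.04 ± 0.18, with an authors' adjusted p listed as 0). Its relative Trip6 had 1.23 FPKM in Srf KO and 3.87 FPKM in WT, a log2 fold of -1.65 ± 0.29. Rsu1, a partner of the complex that integrin-linked kinase forms, had 42.3 FPKM in Srf KO and 111 FPKM in WT, a log2 fold of -1.39 ± 0.19. Apbb1ip, the RIAM gene, whose product brings talin to integrins, had 66.7 FPKM in Srf KO and 110 FPKM in WT, a log2 fold of -0.73 ± 0.18. Integrin-linked kinase itself, Ilk, had 88.8 FPKM in Srf KO and 118 FPKM in WT and was not called, with a log2 fold of -0.41 ± 0.21 and an authors' adjusted p of 0.114. The genes called higher, Ptk2 and Sorbs3, were below 1 FPKM in both genotypes. Ilk, Ptk2 and Sorbs3 are named because of these values.

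**Figure D4:**
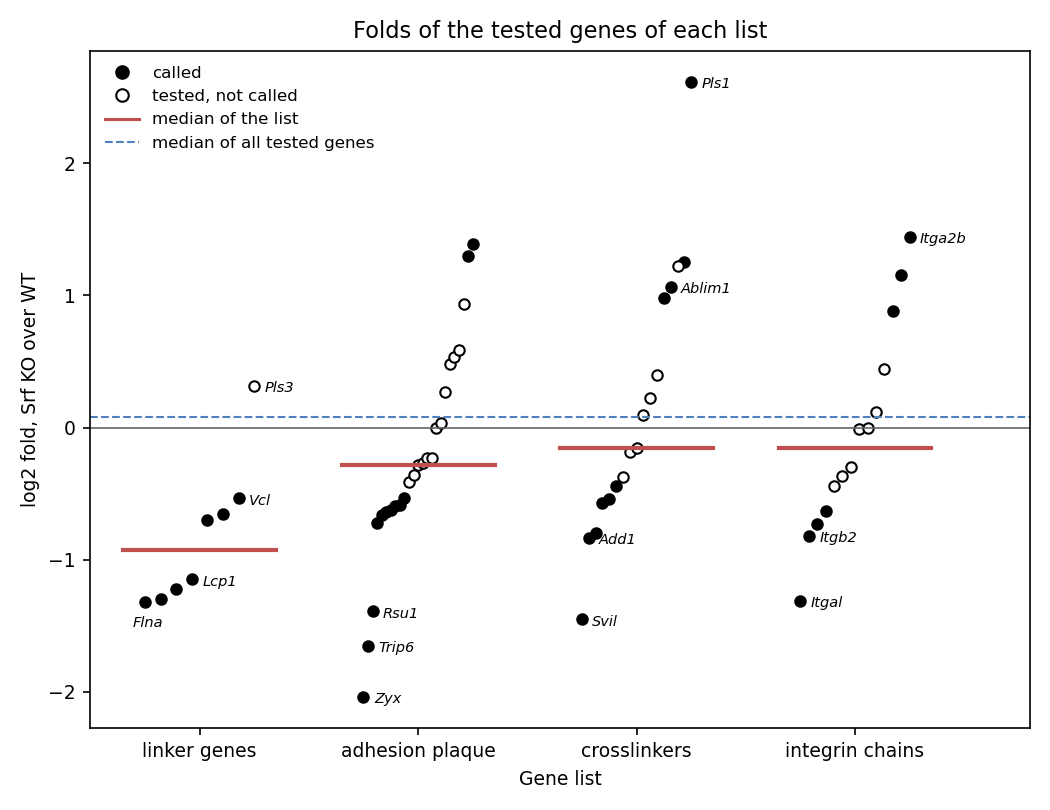
Log2 folds (Srf KO over WT, vertical axis) of the tested linker genes, other adhesion plaque genes, other crosslinkers and integrin chains, from the authors' deposited table. Filled circles were called, open circles were tested without a call, red bars are list medians and the dashed line is the median of all tested genes, 0.08. The linker genes have a median of -0.93, and the other lists have medians of -0.28, -0.15 and -0.16.

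Talin and filamin bind the tails of integrin beta chains, which pair with alpha chains. The 14 alpha and beta chains listed were all tested, with 4 called lower, 3 called higher and a median log2 fold of -0.16. The shares among all 12634 tested genes were 17.8% lower and 17.7% higher, and with 14 chains the counts are too small to be set apart from these. Itgal, the alpha chain of LFA-1, had 60.3 FPKM in Srf KO and 150 FPKM in WT (log2 fold -1.31 ± 0.20). Itgb2, the beta chain it shares with Mac-1, had 555 FPKM in Srf KO and 980 FPKM in WT (log2 fold -0.82 ± 0.21). Itgam, the alpha chain of Mac-1, fell by 0.73 ± 0.26 on the log2 scale and Itgax by 0.63 ± 0.22, in the authors' deposited table. Itga2b, a platelet integrin chain, was called higher with 3.05 FPKM in Srf KO and 1.12 FPKM in WT, and Itgad with 1.91 FPKM in Srf KO and 1.04 FPKM in WT. Itga9, named because of its value, was the third gene called higher and lay below 1 FPKM in both genotypes.

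The sorted cells carried neutrophil transcripts in both genotypes, with differences that stand beside the linker values. Of 7 tested neutrophil markers 5 were called lower in Srf KO and 1, Mpo, was called higher. The median log2 fold of these markers was -0.94, beside -0.93 for the tested linker genes. The summed level of the markers, with Elane included, was 3384 FPKM in Srf KO and 6511 FPKM in WT. Another 5 markers (S100a8, S100a9, Ltf, Ngp and Camp) had too many reads for the authors' software and have no usable value. Markers of other cells were mostly higher in Srf KO, where 17.7% of all tested genes were called higher and 17.8% lower. Of the platelet markers 8 of 14 tested were called higher and 0 lower, with sums of 75.0 FPKM in Srf KO and 31.5 FPKM in WT and with Gp6 at 0 in WT. For T and NK cells these were 11 of 12 higher and 0 lower (119 FPKM in Srf KO, 52.5 FPKM in WT), for B lineage 4 of 8 higher and 0 lower (162 FPKM in Srf KO, 104 FPKM in WT), and for erythroid cells 8 of 10 higher and 0 lower (199.6 FPKM in Srf KO, 140.1 FPKM in WT). Macrophage markers were called higher for 7 of 9 and lower for 2 (147 FPKM in Srf KO, 118 FPKM in WT), and stromal and endothelial markers were called higher for 3 of 9 tested and lower for 0 (21.9 FPKM in Srf KO, 11.8 FPKM in WT). The part of these cells in the linker values was not tested.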

How the data were processed

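Neutrophil RNA of 2 Srf KO and 2 WT samples (genotypes as labelled) had been made into libraries with the TruSeq RNA v2 kit, which does not keep strand, per the labels' protocols. CASAVA 1.8.1, TopHat2 2.0.0, Cufflinks 2.0.0 and mm10 are the tools and build listed, per the submitters' processing notes. The 4 tables hold genes, isoforms, TSS groups and coding sequences as the Cufflinks differential test writes them, per the file headers. FPKM is given as the authors deposited it, pooled, 1 value per genotype. The log2 fold (WT over KO per the file headers, turned here to Srf KO over WT) and the test statistic are scores deposited by the authors, and where a genotype is at 0 the fold is a placeholder and was not used. The p-value and q-value are the authors' own deposited values. In every table the statistic's two-sided normal tail was found to give the p-value, Benjamini-Hochberg adjustment over all tested rows to give the q-value, and a q-value of at most 0.05 to make a call. With pooled values no model could be fitted here, so the authors' test is the main result. How its p-values weigh the spread between the samples cannot be seen from pooled values, and that spread may be technical. Untested genes comprised 10467 with too few reads, 151 marked as low data, 26 failed fits and 6 with too many reads.

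Dividing the absolute log2 fold by the absolute statistic gave the implied standard error. Table starts, which count from 0, are given here counting from 1. Gene coordinates are those of the authors' tables, and strand, exon numbers, lengths and Ensembl identifiers come from GENCODE M21 (GRCm38). Length adjustment subtracted the running median of the folds over 50 length bins smoothed over 5, with lengths for 99.1% of tested genes with a fold. Beside the members, Srf, the cytoplasmic actins and the relatives of the members, the text names up to 4 called genes per list and direction with the largest fold among those above 0 in both genotypes and at 1 FPKM or more in one. Marker lists are given mainly by counts and sums, and 1 other gene so picked is not reported here. The members and the lists were chosen with earlier results of these data known, so their counts are no independent evidence. Alternatives were other thresholds, a 2-fold minimum, a filter at 1 FPKM, pseudocounts of 1 and 0.1, centred and length-adjusted folds and isoform rows; those for integrin chains, relatives and the motif were chosen after seeing the data. The length adjustment was tested on simulated folds drawn with the implied standard errors. That test therefore cannot show whether those standard errors are right. Software was Python 3.11.15 with pandas 2.3.3, numpy 2.4.6, matplotlib 3.10.9 and scipy 1.17.1.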

Additional observations from a re-analysis of the deposited data

How the results depend on the processing

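No fold of a linker gene changed sign under any alternative run, and of 72 alternatives for counts 60 stayed within 1.5 times. A pseudocount cannot change a sign and an isoform sum repeats the gene value, so those alternatives say nothing about sign. The 7 called genes kept their calls with centred folds, with length adjustment except for Vcl, and in their isoform with the highest FPKM except for Pxn. For Flna, Actn1, Actn4, Tln1 and Vcl that isoform repeats the gene row, so it adds something only for Lcp1 and Pxn. With a pseudocount of 1 the folds of Tln2 and Pls3 shrank to -0.02 and 0.08, and pseudocounts and isoform sums gave no test. With a 2-fold minimum, linker genes called lower numbered 4 in place of 7 and TSS rows 4 in place of 7. Crosslinkers called lower numbered 1 in place of 6 (3 higher), plaque genes 3 in place of 10 (2 higher) and integrin chains 1 in place of 4 (2 higher). Among all tested genes, 6.45% were called at least 2-fold lower. More crosslinkers and integrin chains were then called higher than lower, but these counts are too small to give a direction. Of those called higher, the crosslinkers Pls1 and Dst and the integrin chain Itga9 lay below 1 FPKM in both genotypes. At an adjusted p of at most 0.01, crosslinkers numbered 3 lower and 4 higher, plaque genes 6 lower and 1 higher, and integrin chains 2 lower and 2 higher. At 0.10, plaque genes called higher numbered 4 in place of 2. With 1 FPKM or more required, crosslinkers called higher numbered 1 in place of 4 and plaque genes 0 in place of 2. Linker genes with a CArG box numbered 3 of 7 with 1 mismatch allowed, in place of 1, where 21.1% of all windows held such a box. Besides the length-adjusted Vcl and the Pxn isoform given above, the Pls3 isoform with the most signal moved, to a log2 fold of 1.09. The cause was not tested. No paired analysis was possible because the tables hold 1 pooled value per genotype, and for the same reason no sample could be left out. Depth is unknown, and for Tln2 and Pls3 the intervals are the limit.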

Other observations

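The CArG box can be set against the folds of all genes with a RefSeq promoter window, as a description. Of 149 tested genes with an exact box 39 were called lower in Srf KO (26.2%) and 20 were called higher. Of 8735 tested genes without one 1602 were called lower (18.3%) and 1547 were called higher. The median log2 folds were close to each other, 0.0001 for genes with an exact box and 0.06 for genes without. Vcl is the linker gene among the 149. The 6 called linker genes other than Vcl are either without an exact box in their window or, as for Pxn, have no window in the table.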
